A study of Mus musculus with 4 samples.

Results

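Heparan sulfate is a long sugar chain carried by proteins of the cell surface and the extracellular matrix, and its sulfate groups set which growth factors, guidance cues and synaptic proteins bind to it. The genes described here encode the sulfotransferases that add O-sulfate to the chain. These comprise a 2-O enzyme that works on the uronic acid, 6-O enzymes that work on the glucosamine, and 3-O enzymes that add the rarest sulfate. In the developing cortex heparan sulfate is known for its part in FGF signalling, in axon guidance and in synapse formation.

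The 10 members were taken by gene symbol from the deposited table of 32681 genes, and all 10 were found. They are Hs2st1 (2-O), Hs6st1, Hs6st2 and Hs6st3 (6-O), and Hs3st1, Hs3st2, Hs3st3a1, Hs3st3b1, Hs3st4 and Hs3st5 (3-O). The members were chosen by family name, but the family was selected on the contrast between DcpS and control shRNA, in which the fold change of Hs3st2 was among the largest rises. The members' differences between the groups are therefore given as a description without a test, and "called" below only places a gene within the fit over all genes.

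RNA was sequenced from 4 primary neuronal cultures made from the neocortex of wild-type CD-1 mouse embryos at embryonic day 13 and grown in Neurobasal medium with B27. A control short hairpin RNA (shRNA) was transfected into 2 of them, and a hairpin directed at DcpS into the other 2. DcpS is the scavenger decapping enzyme that clears cap fragments left by mRNA decay. The sample titles name 1 DcpS shRNA, so effects of the target and of the hairpin cannot be told apart, and the share of cells that took up either hairpin is not stated in any source used here. The labels do not give the litters behind the cultures, so the spread between replicates may be technical.

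The libraries held 17754768 to 21793685 reads. Values are normalised read counts, meaning reads divided by the authors' size factor for the library. Dcps itself had 499.8 and 506.6 normalised read counts in the controls, against 114.5 and 119.6 with DcpS shRNA. Of the 10 listed neuron markers none had a mean under 1 CPM. Their summed level was 4703 to 4802 CPM in the controls and 4464 to 4588 CPM with DcpS shRNA. Most of this sum came from the general neuronal genes Dcx, Map2 and Tubb3, with means of 1265, 1073 and 990 CPM, so it is not particular to projection neurons. Markers of some other cell types were lower with DcpS shRNA, where 3.65% of all genes tested were called lower. The remaining marker lists are given at the end. The summed level of 7 meningeal fibroblast markers was 562 to 619 CPM in the controls and 331 to 343 CPM with DcpS shRNA, with 6 of 7 called lower. Of 5 tested astrocyte markers 3 were called lower, and of 6 tested endothelial and mural markers also 3, which were Kdr, Pdgfrb and Acta2. Among the latter, Pecam1 was higher without a call, and Cdh5 and Rgs5 lower without a call, each with a mean under 1 CPM. DESeq2 called 4 of the fibroblast, 2 of the astrocyte and 2 of the endothelial and mural markers. The part of these cells in the members' values was not tested, and in bulk RNA fewer cells of a type and less RNA per cell cannot be told apart.

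The coding sequences show how the members relate, and which of them reads can tell apart. In an alignment of the 6 listed 3-O genes, the most conserved stretch of 30 bases codes for part of the loop known to bind PAPS, the activated sulfate donor. It is printed 5′ to 3′ from the GENCODE M21 transcripts (GRCm38), with capitals at the 18 bases shared by all 6 genes. In Hs3st2 it covers bases 367 to 396 of the coding sequence.
Hs3st1: cgcAAgGGtGGtACccGaGCccTGCTaGAG
Hs3st2: aagAAaGGgGGaACtcGgGCggTGCTgGAG
Hs3st3a1: aagAAgGGcGGcACgcGgGCgcTGCTgGAG
Hs3st3b1: aagAAgGGcGGcACgcGgGCatTGCTgGAG
Hs3st4: aagAAaGGaGGgACacGcGCgcTGCTgGAG
Hs3st5: agaAAaGGgGGcACaaGgGCccTGCTaGAG
Even here, the remaining positions varied between the genes. Hs3st3a1 and Hs3st3b1 were the closest pair over their length, and lie 0.513 Mb apart on chromosome 11. Their coding sequences were 82.1% identical and shared an unbroken run of 401 bases, where every other 3-O pair shared at most 22. Reads from that run fit both genes, so the split between this pair is uncertain.

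The same search among the 3 listed 6-O genes found a stretch with 28 of 30 bases in common, which also codes for part of the PAPS-binding loop. In Hs6st1 it covers bases 263 to 292 of the coding sequence, and capitals again mark the shared bases.
Hs6st1: TGATCGTcTTCCTGCACATCCAGAAGACcG
Hs6st2: TGATCGTgTTCCTGCACATCCAGAAGACtG
Hs6st3: TGATCGTgTTCCTGCACATCCAGAAGACcG
The 6-O genes were 62.3% to 67.5% identical over their coding sequences, and their longest shared runs were 20, 42 and 52 bases. Hs6st1 and Hs6st2 had the shortest of these runs, at 20 bases. Hs6st1 and Hs6st3, whose values also moved in opposite directions, shared 42.

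The family was expressed over a wide range in these cultures. Levels are compared between genes as normalised read counts per kb of annotated exon. In the controls Hs3st1 stood at 353 ± 36.3, Hs2st1 at 299 ± 0.344, Hs3st4 at 284 ± 23.2, Hs6st2 at 206 ± 3.62 and Hs6st1 at 196 ± 4.30 per kb (SD, n = 2). These 5 lay between percentiles 67.4 and 81.1 of the 17693 tested genes with a length. Lower levels were found for Hs3st2 at 53.8 ± 0.985, Hs3st5 at 30.8 ± 2.51 and Hs6st3 at 18.9 ± 5.51 per kb (SD, n = 2). Hs3st3b1 and Hs3st3a1 were near the floor, at 5.09 ± 1.29 and 1.35 ± 1.17 per kb (SD, n = 2). Of neighbours in this order, Hs2st1 and Hs3st4 overlapped between their control libraries, and so did no other adjacent pair. With the length of 1 transcript per gene in place of all annotated exons, an alternative chosen after seeing the data, Hs3st4 moved from the third to the fifth place in the controls, so the order of the upper 5 depends on the gene model.

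**Figure D1:**
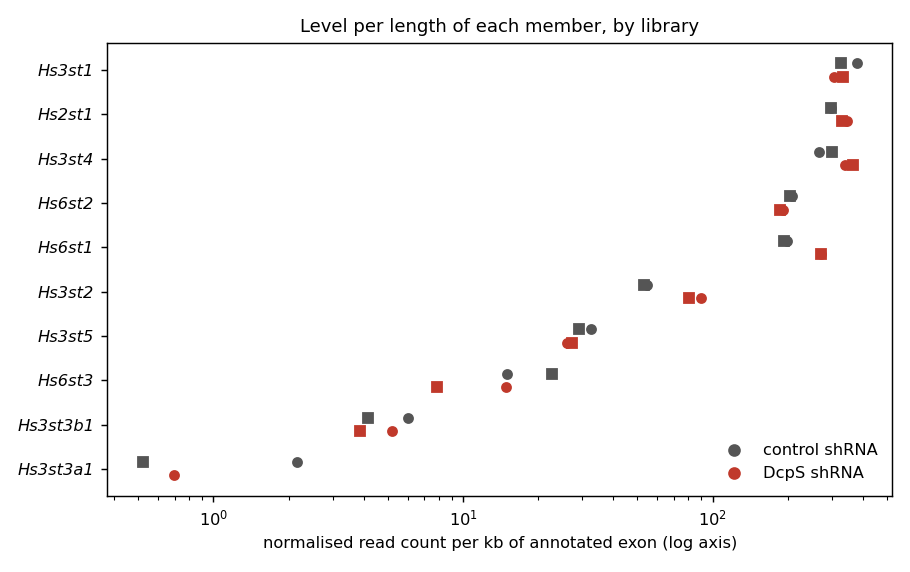
Normalised read count per kb of annotated exon (log axis) of each member in the 4 libraries, with control shRNA in grey, DcpS shRNA in red, circles for replicate 1 and squares for replicate 2. The upper 5 genes lie between 187 and 378 per kb, and the DcpS shRNA 2 library is not drawn for Hs3st3a1, which had 0 reads there.

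Of the 10 members 9 passed the filter on low counts, and 3 of those were called, all higher with DcpS shRNA: Hs6st1, Hs3st2 and Hs3st4. None was called lower, and 2 of the lower members had an unadjusted limma p under 0.05. Over all 18110 genes tested, 5.79% were called (limma, Benjamini-Hochberg adjusted p under 0.05) 2.14% higher and 3.65% lower. The edgeR quasi-likelihood test called the same number of members, beside 5.77% of all genes. DESeq2 called 2, beside 3.26% of the 13896 genes to which it gave an adjusted p. Hs3st3b1 and Hs6st3 had no adjusted p with DESeq2. Groups did not overlap for 7 of the 10 members, 4 higher and 3 lower, where 48.4% of all genes tested had groups that did not overlap. The median log2 fold change of the 9 tested members was −0.12, beside 0.00074 for all genes. The contrast was known when the members were chosen, so nothing is read from these counts.

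**Figure D2:**
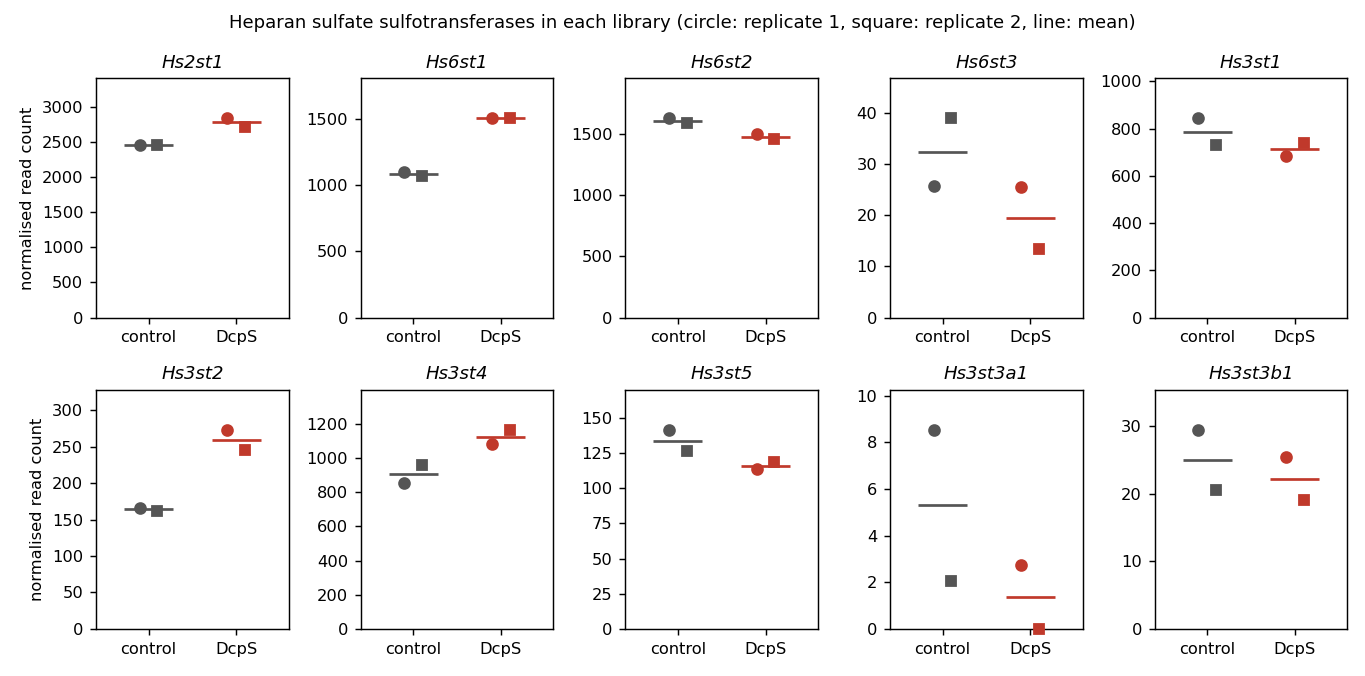
Normalised read count (linear axis from 0) of each of the 10 members by group, with circles for replicate 1, squares for replicate 2 and a line at the group mean. The 2 groups are apart in Hs2st1, Hs6st1, Hs3st2 and Hs3st4, which are higher with DcpS shRNA, and in Hs6st2, Hs6st3 and Hs3st5, which are lower or, for Hs6st3, nearly touch.

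Hs2st1 encodes the only heparan sulfate 2-O-sulfotransferase, which sulfates the uronic acid next to N-sulfated glucosamine. The gene (ENSMUSG00000040151.9) lies on chromosome 3, 144429706 to 144570181, minus strand, GRCm38. Its normalised read count stood at 2458 and 2454 in the controls, against 2839 and 2720.0 with DcpS shRNA. Both DcpS shRNA libraries were above both controls, by more than the spread within either group. The mean went from 2456 ± 2.82 to 2780 ± 84.3 (SD, n = 2), a log2 fold change of 0.18 (SE 0.05) that was not called. Without DcpS shRNA 2 it was called, at 0.21.

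The 6-O genes differed in direction. Hs6st1, the widely expressed 6-O enzyme (ENSMUSG00000045216.7, chromosome 1, 36068400 to 36106446, plus strand), had 1101 and 1068 normalised read counts in the controls, against 1507 and 1506 with DcpS shRNA. The DcpS shRNA libraries were almost equal and far above the controls, which were close to each other. The mean was 139% ± 0.0602 of the control mean (SD of the DcpS shRNA libraries alone, n = 2). This SD leaves out the spread of the controls, whose own SD was 23.8 normalised read counts. The log2 fold change of Hs6st1 was 0.47 (SE 0.06) and was called higher. Across all alternatives this fold change stayed between 0.45 and 0.50 and was called in each.

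Hs6st2 (ENSMUSG00000062184.11, chromosome X, 51387212 to 51681856, minus strand) encodes a 6-O enzyme known for its expression in brain. It had 1629.5 and 1589.6 normalised read counts in the controls, against 1502 and 1456 with DcpS shRNA. Both DcpS shRNA libraries lay below both controls, but the gap was small. The mean was 91.9% ± 2.01 of the control mean (SD of the DcpS shRNA libraries alone, n = 2). The log2 fold change of −0.12 (SE 0.06) was not called. Hs6st3 (ENSMUSG00000053465.6, chromosome 14, 119138341 to 119869815, plus strand), the third 6-O enzyme, was scarce, with 25.7 and 39.0 normalised read counts in the controls, against 25.4 and 13.4 with DcpS shRNA. The replicates of each group differed as much as the groups did. Its log2 fold change of −0.74 (SE 0.34) was not called, ranged from −0.30 to −1.18 as single libraries were left out, and was called only without DcpS shRNA 1, at −1.18.

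Within the 6-O genes the leading gene changed. The ratio of Hs6st1 to Hs6st2, per kb, was 0.952 and 0.946 in the controls, against 1.41 and 1.46 with DcpS shRNA. Hs6st1 made up 47.0% and 46.0% of the summed 6-O level in the controls, against 56.8% and 58.3% with DcpS shRNA. The sum of the 3 genes per kb was 422 and 419 in the controls, against 479 and 466 with DcpS shRNA, so the share shifted more than the sum. Hs6st2 was also the higher of the pair in the controls, and Hs6st1 with DcpS shRNA, when 1 transcript length per gene was used.

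**Figure D3:**
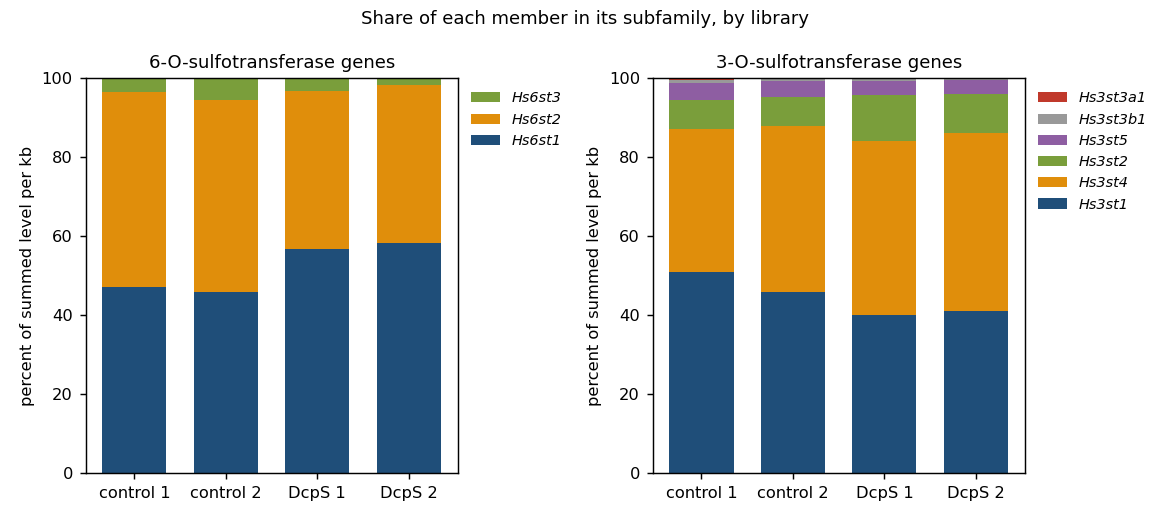
Percent of the summed level per kb taken by each member of the 6-O genes (left) and the 3-O genes (right), 1 bar per library. Hs6st1 takes 46.0% to 47.0% in the control bars and 56.8% to 58.3% in the DcpS shRNA bars, and Hs3st1 with Hs3st4 fills most of every 3-O bar.

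Among the 3-O genes Hs3st2 showed the largest difference. Hs3st2 encodes a 3-O enzyme known as brain-enriched (ENSMUSG00000046321.8, chromosome 7, 121391859 to 121501770, plus strand). Its normalised read count stood at 166 and 162 in the controls, against 273 and 246 with DcpS shRNA, from 158 to 301 recovered reads per library. Every DcpS shRNA value was at least 1.48 times every control value. The mean was 158% ± 11.9 of the control mean (SD of the DcpS shRNA libraries alone, n = 2). The log2 fold change was 0.66 (SE 0.12) and was called higher, with values from 0.58 to 0.73 under the alternatives. The family was selected on this contrast, with the rise of Hs3st2 known, so nothing is read from the call or from that range.

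Hs3st4, a second 3-O gene of neurons, lies on the same chromosome and strand, 2.48 Mb beyond the end of Hs3st2 (ENSMUSG00000078591.1, chromosome 7, 123982869 to 124398989). Its coding sequence was the closest to that of Hs3st2, with 67.1% identity. It had 854 and 959 normalised read counts in the controls, against 1084 and 1167 with DcpS shRNA. The groups did not overlap, but the controls differed from each other by nearly as much as control 2 differed from DcpS shRNA 1. The log2 fold change was 0.31 (SE 0.07) and was called higher. The call ended with DESeq2 (log2 fold change 0.31) and without control 1 (0.23).

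The most abundant 3-O gene in the controls moved the other way, within its spread. Hs3st1 encodes the 3-O enzyme known for making the antithrombin-binding site of heparan sulfate (ENSMUSG00000051022.7, chromosome 5, 39613935 to 39755475, minus strand), and it is the only member with a single coding exon in the transcript used here. It had 844 and 729 normalised read counts in the controls, against 686 and 741 with DcpS shRNA. The groups overlapped, and the log2 fold change of −0.14 (SE 0.08) was not called. The ratio of Hs3st4 to Hs3st1 per kb was 0.708 and 0.920 in the controls, against 1.10 and 1.10 with DcpS shRNA. This put Hs3st4 above Hs3st1 with DcpS shRNA, an order that did not hold with 1 transcript length per gene, where Hs3st1 stood at 423 and Hs3st4 at 353 per kb.

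Hs3st5, another 3-O gene with expression in brain (ENSMUSG00000044499.11, chromosome 10, 36506814 to 36834397, plus strand), had 142 and 126 normalised read counts in the controls, against 114 and 118 with DcpS shRNA. The groups did not overlap, and the log2 fold change of −0.20 (SE 0.14) was not called. Hs3st2 was 1.67 and 1.83 times Hs3st5 per kb in the controls, against 3.43 and 2.95 times with DcpS shRNA. Hs3st2 took 7.35% and 7.44% of the summed 3-O level in the controls, against 11.7% and 9.96% with DcpS shRNA, while Hs3st1 and Hs3st4 together filled most of the rest.

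The last pair, Hs3st3b1 and Hs3st3a1, was barely detected. Hs3st3b1 (ENSMUSG00000070407.5, chromosome 11, 63885792 to 63922290, minus strand) had 31 and 20 recovered reads in the controls, against 28 and 17 with DcpS shRNA. Its log2 fold change of −0.15 (SE 0.31) was not called and turned to 0.10 without control 1 and to 0.05 without DcpS shRNA 2. Hs3st3a1 (ENSMUSG00000047759.6, chromosome 11, 64435332 to 64522841, plus strand) had 9 and 2 reads in the controls, against 3 and 0 with DcpS shRNA, and did not pass the filter. A count of 0 allows up to 3 reads, so no difference was detectable for it at this depth.

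**Figure D4:**
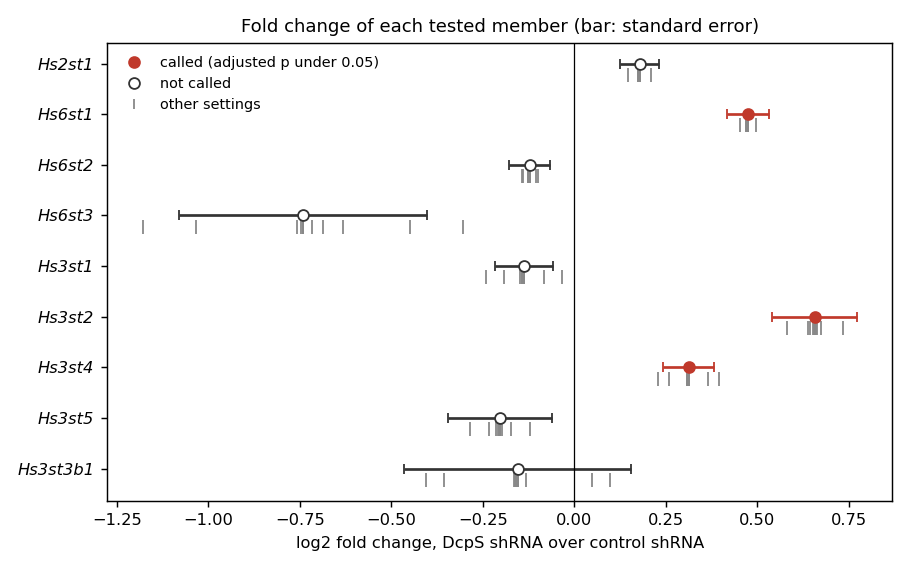
Log2 fold change (DcpS shRNA over control shRNA) of the 9 tested members with its standard error, filled red where called, and grey ticks for the value under each alternative. Hs6st1, Hs3st2 and Hs3st4 lie to the right of 0 under every alternative, and the ticks of Hs3st3b1 fall on both sides of 0.

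In 4 of the 10 members an exon overlaps an exon of a gene annotated on the opposite strand, as in 28.4% of 17693 tested genes with a gene model. These are Hs6st1 (with Gm37335), Hs3st2 (Gm36736), Hs3st4 (Gm27040) and Hs3st3a1 (F930015N05Rik). No source used here says whether counting used strand. Gm36736 held 0 to 2 reads per library and Gm27040 held 1 to 6, against 158 or more for the member beside them. With strand use unknown, these low counts cannot show how many reads of the opposite strand were counted for the member. Gm37335 and F930015N05Rik were not found by symbol in the deposited table, so the partners of Hs6st1 and Hs3st3a1 have no values here.

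A pair of 7-base words, ACGTGCA and CACGTGC, both found in the Dcps transcripts, was known from earlier work on these data to be frequent in the 3′ UTRs of genes that fell. Scanned on the transcript strand of all annotated coding transcripts (the words can overlap, since the last 6 bases of the second are the first 6 of the first), 1097 of 13709 tested genes (8.0%) had at least 1 of them, and 33.1% of the 646 called lower. Of the members, Hs6st2 holds ACGTGCA and Hs3st5 holds CACGTGC. Both were lower without a call. Hs3st1, Hs3st3b1 and Hs6st3 were also lower without a call and hold neither word. Hs2st1, Hs3st3a1 and the 3 members called higher hold neither as well. The words came from genes that fell in these same data, so nothing is read from where they occur among the members. No source used here gives the sequence of the hairpin, and a match is a description, not a site.

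The other genes of the pathway give the setting of these differences. From 6 lists covering chain building to breakdown, 50 of 53 genes were tested, of which 3 were higher, 7 lower and 40 not called. Those not tested include Hs3st6, a 3-O gene outside the listed members, with 0 or 1 reads per library. The called share was 20.0%, beside 5.79% of all genes, and the median log2 fold change was −0.01. The lists were chosen with earlier results of these data known, so nothing is read from this share. DESeq2 called 5 of the 50, all lower, and the 3 higher calls ended with it. Those 3 calls also ended without either control.

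Of the enzymes that edit finished chains outside the cell, 2 of 3 tested were lower. Sulf1 and Sulf2 encode the endosulfatases that remove 6-O sulfate from heparan sulfate at the cell surface, the reverse of what the 6-O sulfotransferases add. Sulf1 had 1251 and 1488 normalised read counts in the controls, against 751 and 774 with DcpS shRNA, and fell by 0.84 on the log2 scale (SE 0.08, limma, Benjamini-Hochberg adjusted p 4.77e-06). Sulf2 had 944 and 887 in the controls, against 698 and 723 with DcpS shRNA, a log2 fold change of −0.36 (SE 0.07, limma, Benjamini-Hochberg adjusted p 0.00331). In both genes every DcpS shRNA library was below every control, and the calls held under all alternatives. Meningeal fibroblast markers fell in the same libraries, with a median log2 fold change of −0.77, and their part in the falls of Sulf1 and Sulf2 was not tested. Heparanase, Hpse, was scarce, with 7.60 and 15.4 normalised read counts in the controls, against 9.09 and 11.2 with DcpS shRNA.

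Genes that act before the sulfotransferases mostly did not pass the test. The N-deacetylase/N-sulfotransferases, whose products the 2-O, 6-O and 3-O enzymes need as substrate, were not called: Ndst1 had a log2 fold change of 0.02 (SE 0.06), Ndst2 0.01 (SE 0.08), Ndst3 −0.10 (SE 0.10) and Ndst4 −0.12 (SE 0.22). Glce, the epimerase that turns glucuronic into iduronic acid, had 620.5 and 609 normalised read counts in the controls, against 756 and 739 with DcpS shRNA, and rose (0.28, SE 0.07). Its call ended with DESeq2 and without either control. Of 12 genes for the linker and the chain, 1 was lower and 1 higher. Ext1, a subunit of the chain polymerase, had 1551 and 1368 in the controls, against 1007 and 1074 with DcpS shRNA and fell (−0.49, SE 0.07), under all alternatives. Pxylp1, a phosphatase of the linker xylose, rose (0.28, SE 0.06), a call lost with DESeq2, without either control and without DcpS shRNA 2.

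Of 6 genes for the sulfate donor, 1 was lower: Papss1, a PAPS synthase, fell (−0.22, SE 0.05), a call lost with DESeq2 and without either control. The Golgi PAPS transporter Slc35b2 was not called (0.11, SE 0.07). Of 8 genes of lysosomal breakdown 0 were called by limma, edgeR or DESeq2, 0 had an unadjusted limma p under 0.05, and their median log2 fold change was 0.14. The proteins that carry the chains moved in both directions, with 3 lower, 1 higher and 12 not called of 16 tested. Col18a1, the collagen whose C-terminal part is endostatin, fell (−0.73, SE 0.06), from 1795 and 1756 normalised read counts to 1077 and 1058. Nrxn2, a presynaptic adhesion protein, fell (−0.68, SE 0.06) and has both 7-base words. The other called genes of the pathway lists have neither word: the lower Ext1, Papss1, Sulf1, Sulf2, Sdc2 and Col18a1, and the higher Pxylp1, Glce and Gpc4. Syndecan 2, Sdc2, fell (−0.32, SE 0.08) and glypican 4, Gpc4, rose (0.21, SE 0.06). The call of Sdc2 ended with DESeq2 and without control 2, and that of Gpc4 with DESeq2 and without either control. Fibroblast markers fell beside Col18a1 and Ext1 as they did beside Sulf1, and their part was not tested.

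**Figure D5:**
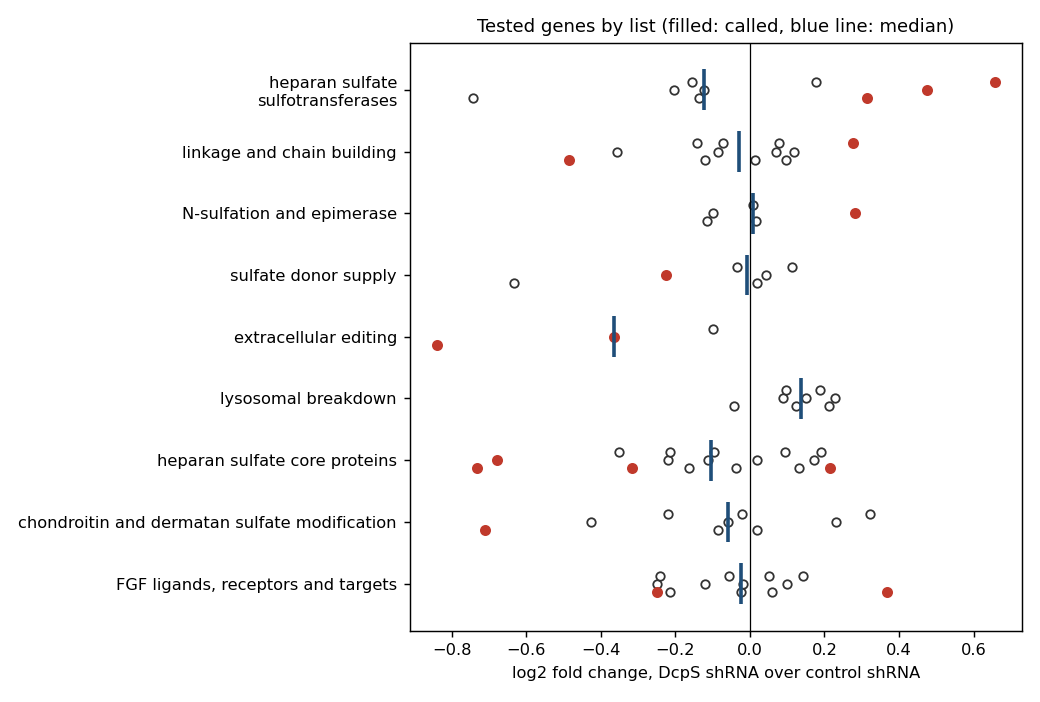
Log2 fold change (DcpS shRNA over control shRNA) of each tested gene, 1 row per list, with filled points for called genes, open points for genes not called and a blue line at the list median. The 9 sulfotransferase genes spread from −0.74 to 0.66 around a median of −0.12, and the lowest filled point is Sulf1 at −0.84.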

How the data were processed

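The deposited table gives 1 signal value per gene and library, made by the authors by dividing read counts by a size factor: each value was a whole multiple of its column's smallest positive value, which gave whole reads for 100% of values within 0.001. The submitters' processing notes name HISAT2 2.2.0, SAMtools 1.3.1, Picard, featureCounts, DESeq2 and GRCm38. No source used here names the annotation or says whether strand was used. Genes were kept by edgeR's filterByExpr (minimum count 10) and tested with limma 3.58.1 on log2(normalised read count + pseudocount of 1), using trended, robust variance moderation, a model of group alone, and Benjamini-Hochberg adjustment over 18110 genes. This scale understates the change of low genes. The count test on recovered reads, edgeR 4.0.16, called 1045 genes and limma 1048. DESeq2 1.42.0 was an alternative. The script was tested on simulated data. Lengths, positions and coding sequences came from GENCODE M21, aligned with mafft 7.526. With 2 samples against 2, p-values rest on the spread pooled over genes.

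The members and lists were chosen with earlier results of these data known. Named genes were every member, Dcps, every called gene of the other lists, Ndst1 to Ndst4, Sulf1 and Sulf2, and genes with a like pattern. Hpse, Slc35b2 and the marker genes were named after their values were seen.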

Additional observations from a re-analysis of the deposited data

How the results depend on the processing

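Of 108 values of the 9 tested members under 12 alternatives, 99 kept their direction and their side of the threshold, and 2 (Hs3st3b1 and Hs6st3 with DESeq2) had the same direction but no adjusted p. Hs3st3b1 reversed with single libraries left out, its log2 fold change running from −0.41 to 0.10. Hs2st1 passed the threshold with the replicate block and without DcpS shRNA 2, Hs6st3 without DcpS shRNA 1, and Hs3st4 lost its call with DESeq2 and without control 1. The number of genes called over the whole table was 1048 and became 453 with DESeq2, 1626 with the replicate block, and 747 to 1745 with single libraries left out, the highest without DcpS shRNA 1. The labels do not say that replicate numbers pair cultures, and same-numbered libraries deviated together little (correlation 0.04 over genes). With the replicate block 4 members were called, in place of 3, and 12 of the other pathway genes, in place of 10. Called pathway genes numbered 5 with DESeq2 and 5 to 13 with single libraries left out, chondroitin genes 1 to 2, and FGF genes 1 with DESeq2 and 1 to 2. A library left alone in its group is assumed to vary like the others. The causes were not tested. Hs3st3a1, Hs3st3b1 and Hs6st3 had 38 or fewer reads per library.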

Other observations

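Genes that sulfate the related chondroitin and dermatan chains gave 1 call among 9 tested, and FGF genes 2 among 13. Chst15, which adds the second sulfate of highly sulfated chondroitin, had 1323 and 1373 normalised read counts in the controls, against 869 and 781 with DcpS shRNA. It fell by 0.71 on the log2 scale (SE 0.07, limma, Benjamini-Hochberg adjusted p 6.33e-06) and has the word ACGTGCA in its 3′ UTR. The FGF receptor Fgfr2 rose (0.37, SE 0.07) and the FGF-responsive transcription factor Etv5 fell (−0.25, SE 0.06). The call of Etv5 ended with DESeq2 and without control 1. The medians were −0.06 for the chondroitin list and −0.02 for the FGF list.

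The genes whose 4 values lay closest to those of Hs3st2, among 3696 tested genes of a like level, were Fam81a, Tuba4a, Dera, Per3 and Abca8b (Euclidean distance of centred log2 values 0.04 to 0.15). Fam81a had 135 and 131 normalised read counts in the controls, against 214 and 198 with DcpS shRNA. For Hs6st3, with 3579 genes of a like level, the closest were Proca1, Fes, 4930577N17Rik, Gm17705 and Olig2 (0.15 to 0.23). Olig2, a factor of the oligodendrocyte lineage, had 27.6 and 42.0 normalised read counts in the controls, against 23.6 and 15.6 with DcpS shRNA. The genes were picked for this closeness, and Hs6st3 had 12 to 38 reads per library, so nothing is read from the likeness. With 4 libraries both lists are descriptions.

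Of the remaining marker lists, the neuron list had 2 of 10 genes called higher (Rbfox3 and Slc17a7). The call of Rbfox3 was lost with DESeq2 and without control 2. Radial glia and progenitors had 1 of 7 called higher, Nes. The oligodendrocyte lineage had 1 higher, Mbp, and 1 lower, Pdgfra, of 5 tested. DESeq2 called 0 of that list, and the call of Mbp also ended without control 1 and without DcpS shRNA 2. Interneuron, Cajal-Retzius, microglia and red blood cell markers had 0 called by limma, edgeR or DESeq2. At an unadjusted limma p under 0.05 there was 1 interneuron gene and 1 microglia gene.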
